A study of Mus musculus with 6 samples.

Results

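The mitochondrial ribosomal proteins of NMuMG, an immortalised line derived from epithelium of the mouse mammary gland, were followed across 3 states. Members were the genes with a single annotated symbol that starts with Mrpl or Mrps and a number, each read from the one of its probe sets that was brightest on average across the 6 arrays. This gave 76 of the 18193 genes measured, 47 with an Mrpl and 29 with an Mrps symbol. The rule used no expression difference.

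Mitochondria keep their own ribosome, which makes the membrane-embedded core subunits of the respiratory chain and of ATP synthase from messages of mitochondrial DNA. Its ribosomal RNAs are encoded in mitochondria, but every one of its proteins is encoded in the nucleus, made on cytosolic ribosomes and imported. Many of the proteins have a bacterial counterpart, while others exist only in mitochondrial ribosomes. In structure, the members formed 49 proteins of the large subunit, where peptide bonds are made, and 26 of the small subunit, where the message is read. Mrps18a and Mrps30 carry an Mrps symbol but sit in the large subunit. Mrps36 is now known as a component of the 2-oxoglutarate dehydrogenase complex and is no ribosome subunit.

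Cells of the withdrawal group were exposed to the cytokine TGF-β at 4 ng/ml for 11 days and then kept without it for a further 13 days. Cells of the TGF-β group had the same 11 days of exposure, and control cells had vehicle. All 3 groups were the same line in the same serum- and insulin-containing medium, with 2 arrays each, a number that limits how precise any value is. TGF-β drives NMuMG cells into an epithelial-mesenchymal transition, and the series follows that transition and its reversal. The labels leave unsaid if replicate arrays hold RNA of separate cultures. A p-value here thus measures nothing beyond the array-to-array spread, which may be technical. Withdrawal and the longer time in culture cannot be told apart. In bulk RNA, fewer cells of a kind and less RNA per cell cannot be told apart either.

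One label field names the withdrawal cells as in epithelial-mesenchymal transition and the TGF-β cells as past the reverse transition, the opposite of what titles and treatments give; groups here follow the titles and treatments. Cdh1 (E-cadherin) averaged 11.80 in withdrawal cells, 8.31 in TGF-β cells and 11.94 in control cells, and Tagln, a smooth muscle marker, averaged 6.90, 12.65 and 6.90 in the same groups. Under TGF-β, 4 of 5 epithelial markers were lower and 5 of 5 contractile and mesenchymal markers were higher than in control. After withdrawal, Cdh2 (N-cadherin) and Fn1 (fibronectin) were 1.17 and 2.11 log2 units above control, and both were higher than under TGF-β, by 0.41 and 0.46. Krt8 and Krt18 (keratins) were 0.94 and 0.53 below control after withdrawal, and Krt8 was also below its TGF-β level, with a difference of -0.22. Markers of macrophages and leukocytes (5 measured), endothelium (4) and adipocytes (3) stayed at or below 6.91 log2 units, where background and low expression are not separated. Their defining genes Ptprc, Pecam1 and Adipoq stayed under 5. The lysosomal Cd68 rose after withdrawal, by 1.05 against TGF-β and 0.88 against control, and Cdh5 was 0.26 lower under TGF-β than in control. The part of either in the results was not tested.

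Promoters of 67 of the 76 members were found in the RefSeq table for GRCm38.p6, each spanning 250 bases before to 50 bases after the gene's start. The windows of the 3 members below, shown 5′ to 3′ on the gene's strand, were chosen after their values were seen: Mrpl49 fell furthest, Mrps12 was lower after withdrawal than in either other group, and Mrpl52 was higher than control in both treated groups on the deposited scale. Capitals mark exact matches to 2 motifs searched on both strands, AAGATGGC (the YY1 motif, GCCATCTT on the other strand) and CCGGAAG (the ETS motif read by GABPA, CTTCCGG on the other strand).
Mrpl49, chr19:6057706-6058005, minus strand: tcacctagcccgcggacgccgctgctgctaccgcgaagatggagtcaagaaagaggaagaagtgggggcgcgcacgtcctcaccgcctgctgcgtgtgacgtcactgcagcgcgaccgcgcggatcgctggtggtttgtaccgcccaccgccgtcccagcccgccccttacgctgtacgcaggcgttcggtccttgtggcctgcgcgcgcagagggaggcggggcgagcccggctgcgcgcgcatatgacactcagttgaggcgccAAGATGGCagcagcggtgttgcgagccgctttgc
Mrps12, chr7:28741772-28742071, minus strand: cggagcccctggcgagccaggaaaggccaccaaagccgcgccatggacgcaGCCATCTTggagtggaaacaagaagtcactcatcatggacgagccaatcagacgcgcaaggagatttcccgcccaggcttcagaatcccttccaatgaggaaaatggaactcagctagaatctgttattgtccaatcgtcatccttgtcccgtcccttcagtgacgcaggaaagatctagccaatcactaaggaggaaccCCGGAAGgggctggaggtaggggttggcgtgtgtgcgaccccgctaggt
Mrpl52, chr14:54426659-54426958, plus strand: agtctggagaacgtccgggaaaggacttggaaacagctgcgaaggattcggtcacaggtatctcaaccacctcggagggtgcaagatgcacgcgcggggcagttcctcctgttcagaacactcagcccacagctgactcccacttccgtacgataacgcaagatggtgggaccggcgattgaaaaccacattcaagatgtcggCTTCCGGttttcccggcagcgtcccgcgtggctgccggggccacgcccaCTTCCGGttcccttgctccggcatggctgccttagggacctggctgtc

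Mrpl49 held 1 YY1 motif just after its start. In Mrps12, 1 YY1 motif lay far upstream on the other strand and 1 ETS motif at the start itself, and Mrpl52 held 2 ETS motifs on the other strand, 1 before its start and 1 just after it. The ETS motif stood in 25 of 67 member windows (37.3%), against 9.93% of all 27025 genes with a window and 24.4% of 5273 genes at least as bright as the dimmest member. The YY1 motif stood in 12 (17.9%), against 3.19% of all and 6.52% of bright genes. The E-box CACGTG, which MYC and MAX bind, stood in 5 (7.46%), a share below its 8.09% among all genes and 13.0% among bright ones. The ETS motif ends in the letters that begin the YY1 motif, so one stretch can hold both. Of the members with a window, 42 were lower after withdrawal than in control. Of these 14 (33.3%) held the ETS and 10 (23.8%) the YY1 motif, against 11 (44.0%) and 2 of the 25 others. These are counts of letters, given without a test.

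The members were bright genes whose arrays agreed closely. Their mean levels ran between 8.12 log2 units for Mrpl1 and 11.59 for Mrpl13, with a median of 10.26 against 6.86 over all genes, and 71 of 76 lay above the 75th percentile of all genes. The SD between the 2 arrays of a group had a median of 0.0308 log2 units over members and 0.0516 over all genes. Bright genes with little spread pass a test more readily. Each share of members called is therefore set beside the share of all genes called and beside that of the 6384 genes at least as bright as the dimmest member.

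The median member was lowest after withdrawal and highest in control. It stood at 10.06 and 10.07 log2 units on the 2 withdrawal arrays, 10.36 and 10.38 on the TGF-β arrays, and 10.44 and 10.45 on the control arrays. The 3 pairs did not overlap. At the median, withdrawal cells stood further from control than TGF-β cells did. The markers were divided: the withdrawal differences of Cdh1 and Tagln from control, -0.14 and -0.01, did not pass (adjusted p = 0.136 and 0.946, limma), while Fn1, Cdh2 and Krt8 also stood further from control after withdrawal than under TGF-β. The 3 comparisons share arrays, so each is given with its own values.

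**Figure D1:**
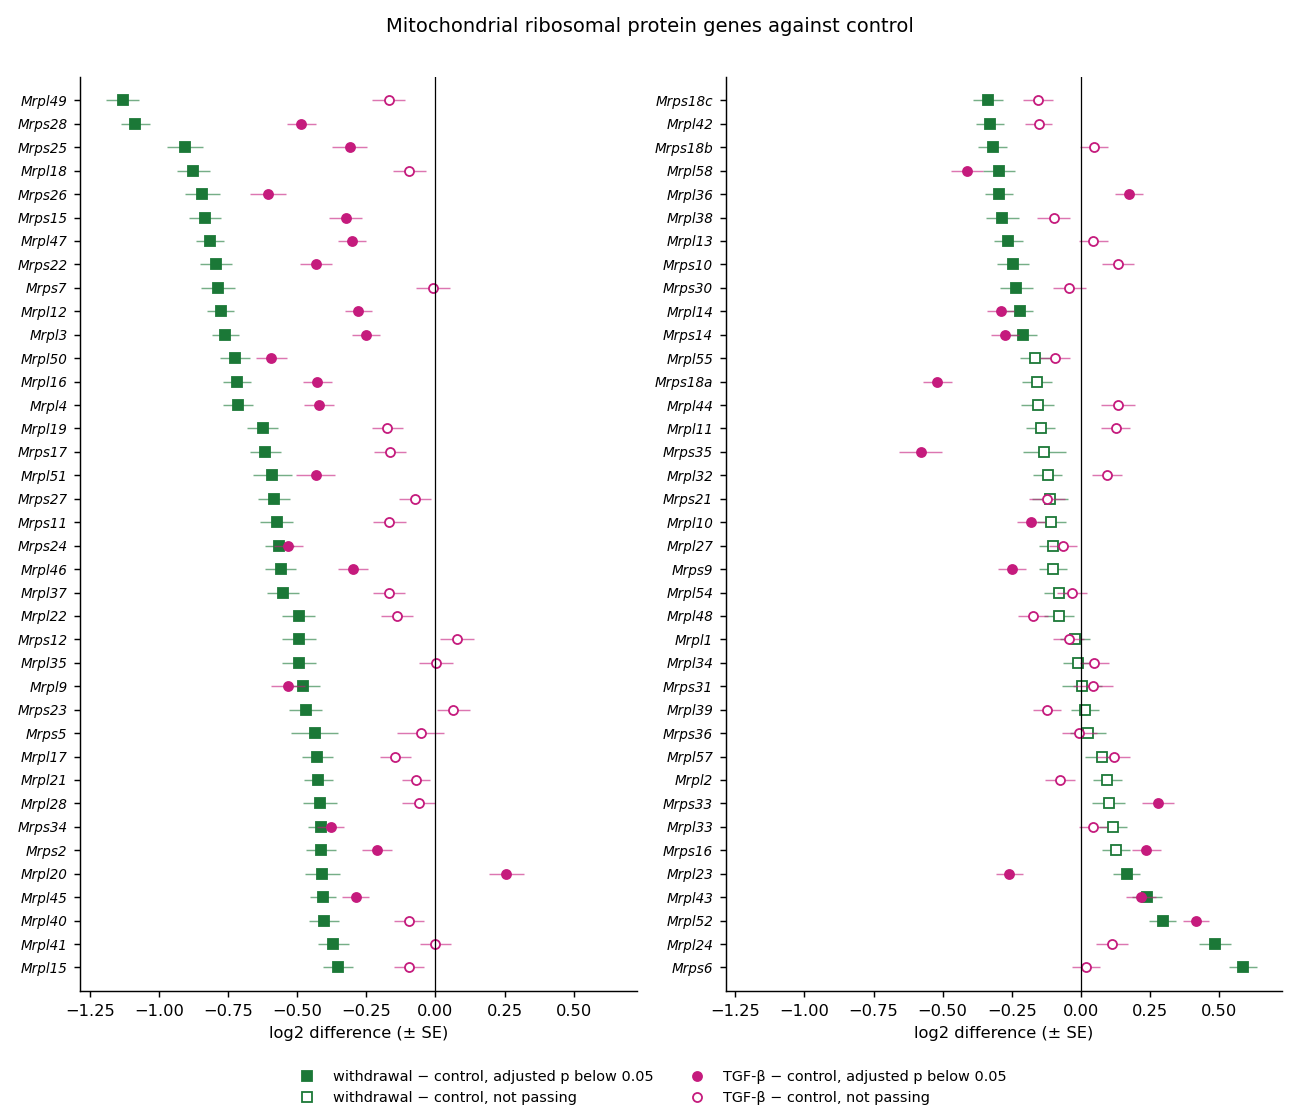
Each of the 76 members by its log2 difference of the TGF-β group from control and of the withdrawal group from control; both differences use the same 2 control arrays. Members reach -1.13 after withdrawal (Mrpl49) and -0.60 under TGF-β (Mrps26), and the highest is Mrps6 at 0.59 after withdrawal.

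After withdrawal, 49 of 76 members (64.5%) were lower and 5 (6.58%) higher than in control at an adjusted p below 0.05. Among all genes tested 23.6% were lower and 21.7% higher, and among the bright genes 39.1% and 35.6%. The median member difference was -0.34 log2 units, 21.2% lower, against -0.04 over all genes. Levels on both withdrawal arrays were below both control arrays for 60 members (39.5% of all genes) and above both for 9 (31.0% of all genes). In 22 members the call was lower and the difference at least 0.5, and 2, Mrpl49 and Mrps28, were lower by more than 2-fold.

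Mrpl49, a large subunit protein found only in mitochondria, had 9.69 and 9.75 log2 units on the withdrawal arrays, 10.63 and 10.72 on the TGF-β arrays, and 10.81 and 10.89 on the control arrays. It was 1.13 ± 0.0614 (SE) log2 units lower after withdrawal than in control, a change of -54.4% (adjusted p = 3.53e-05), and its second probe set was 0.68 lower. Most of that gap lay between withdrawal and TGF-β, where it differed by -0.96 (adjusted p = 7.09e-05); the TGF-β difference from control, -0.17, did not pass (adjusted p = 0.0887). Syvn1, a gene that overlaps it in the annotation, was 0.69 higher after withdrawal than in control.

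Mrps28, a small subunit protein, stood at 9.50 and 9.55 after withdrawal, 10.11 and 10.13 under TGF-β, and 10.58 and 10.64 in control. The 3 groups formed steps without overlap, with -0.60 for withdrawal against TGF-β (adjusted p = 0.000258) and -0.48 for TGF-β against control (adjusted p = 0.001). Withdrawal was 1.08 ± 0.053 (SE) below control, a change of -52.9% (adjusted p = 2.45e-05). Mrps25, Mrps15 and Mrps22 of the small subunit and Mrpl47 and Mrpl12 of the large subunit were stepped in the same way and passed in each comparison. Mutations of human MRPS22 and MRPS28 cause inherited deficiency of the respiratory chain.

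Mrpl12, a protein of the stalk that recruits translation factors, had 10.90 and 10.88 after withdrawal, 11.39 and 11.38 under TGF-β, and 11.66 and 11.67 in control. Its differences were -0.78 ± 0.0479 (SE) for withdrawal against control (adjusted p = 5.65e-05), -0.50 for withdrawal against TGF-β and -0.28 for TGF-β against control (adjusted p = 0.000369 and 0.00641). Its partner at the stalk base, Mrpl10, moved little: it was 0.18 lower under TGF-β than in control (adjusted p = 0.0416, lost when any 1 array was left out) and -0.11 after withdrawal (adjusted p = 0.147). Mrpl11, which lies beside the stalk, fell by 0.27 on withdrawal against TGF-β (adjusted p = 0.00683). Its other probe sets gave -0.13, -0.12 and -0.12 there, none with a call.

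Other members passed in both withdrawal comparisons and not in that of TGF-β with control. Mrps7, of the small subunit's head, had 9.57 and 9.69 after withdrawal, against 10.40 and 10.42 under TGF-β and 10.39 and 10.44 in control. It was 0.79 ± 0.0614 (SE) below control after withdrawal (adjusted p = 0.000141), and its TGF-β difference from control was -0.01 (adjusted p = 0.949). Mrpl18, of the central protuberance, a ridge that faces the small subunit, had 10.20 and 10.32 after withdrawal, 11.04 on both TGF-β arrays, and 11.13 and 11.14 in control. Its withdrawal difference from control was -0.88 ± 0.0595 (SE; adjusted p = 8.1e-05), and under TGF-β it was -0.09 (adjusted p = 0.302). Tcp1, a chaperonin gene that overlaps Mrpl18 in the annotation, was 0.40 lower after withdrawal than in control.

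Mrps12, the protein of the decoding centre whose bacterial counterpart carries streptomycin resistance, had 9.51 and 9.59 after withdrawal, 10.07 and 10.17 under TGF-β, and 10.02 and 10.06 in control. Withdrawal was 0.57 ± 0.0625 (SE) below TGF-β (adjusted p = 0.000626) and 0.49 below control (adjusted p = 0.00111), while TGF-β was 0.08 above control (adjusted p = 0.415). Mrps23, Mrps27 (a protein with pentatricopeptide repeats) and Mrpl41 had withdrawal differences from control of -0.47, -0.58 and -0.37. All 3 passed after withdrawal, while their TGF-β differences from control, 0.06, -0.07 and -0.00, did not pass.

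**Figure D2:**
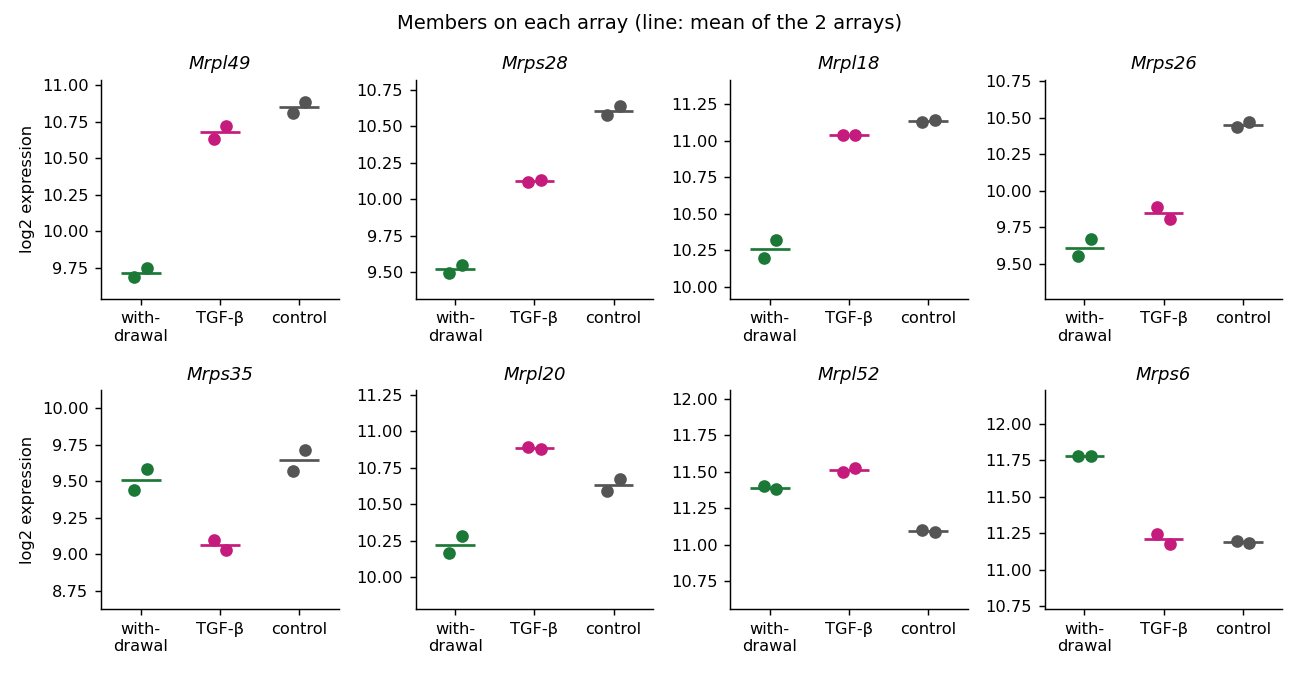
Log2 level of 8 members on each array, in withdrawal, TGF-β and control groups, with 1 point per array; each panel spans the same number of log2 units. The withdrawal points of Mrpl49 and Mrpl18 lie far under the other groups, those of Mrps28 are the lowest of 3 steps, Mrps26 is low in both treated groups, Mrps35 is low and Mrpl20 high under TGF-β, and Mrps6 is high after withdrawal.

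The 5 members higher after withdrawal than in control were Mrps6, Mrpl24, Mrpl52, Mrpl43 and Mrpl23. Mrps6, a small subunit protein with a bacterial counterpart, had 11.78 on both withdrawal arrays, against 11.24 and 11.18 under TGF-β and 11.20 and 11.18 in control. It was 0.59 ± 0.051 (SE) log2 units or 50.1% higher after withdrawal than in control (adjusted p = 0.00022), and its second probe set was 0.48 higher. Slc5a3, the myo-inositol transporter gene that overlaps Mrps6 in the annotation, was 2.07 higher after withdrawal than in control. It had 11.37 and 11.38 after withdrawal, 9.37 and 9.22 under TGF-β, and 9.32 and 9.30 in control. Whether the Mrps6 probes also read Slc5a3 transcripts was not tested.

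Mrpl24 and Mrpl23 line the mouth of the tunnel through which the new protein leaves. Mrpl24 had 10.83 and 10.94 after withdrawal, against 10.51 and 10.52 under TGF-β and 10.39 and 10.42 in control, a difference of 0.48 ± 0.058 (SE) from control (adjusted p = 0.000878). Mrpl52, found only in mitochondria, had 11.40 and 11.38, against 11.50 and 11.52 under TGF-β and 11.10 and 11.09 in control. Its rise over control was 0.30 ± 0.0483 (SE; adjusted p = 0.0034), while 2 of its other probe sets gave 0.15 and 0.14 without a call, and its dimmest gave -0.33, also without one. Mrpl43 was 0.24 and Mrpl23 0.17 above control (adjusted p = 0.0128 and 0.0343). Twnk, which overlaps Mrpl43 in the annotation, was 0.40 higher after withdrawal and 0.26 higher under TGF-β than in control. Rrnad1, which overlaps Mrpl24, was 0.18 lower after withdrawal than in control. Mrpl23 lost its call when any 1 array was left out, and Mrpl43 lost it without withdrawal replicate 2 or without control replicate 1, either of which left 3 members higher. Arrays scaled to the hybridization spikes put Mrpl52, Mrpl43 and Mrpl23 below control.

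After withdrawal, 43 of 76 members (56.6%) were lower and 6 (7.89%) higher than in the TGF-β group. Over all genes 22.1% were lower and 21.8% higher, and over the bright genes 37.2% and 34.9%. The median member difference was -0.21 log2 units, 13.4% lower, against -0.03 over all genes. Both withdrawal arrays lay below both TGF-β arrays for 55 members (37.2% of all genes) and above both for 15 (31.8% of all genes). The largest falls were those of Mrpl49 (-0.96), Mrpl18 and Mrps7 (-0.78 each), then Mrpl20 (-0.67). The 6 higher members were Mrps6, Mrps35, Mrpl23, Mrpl24, Mrps18a and Mrpl2. In the same comparison, genes that overlap some of them in the annotation differed by 2.08 (Slc5a3, Mrps6), 1.22 (Klc4, Mrpl2), 0.01 (Rsph9, Mrps18a) and -0.27 (Rrnad1, Mrpl24). Mrpl2 itself differed by 0.17 (adjusted p = 0.0464, limma). Whether probes of these members also read the overlapping genes was not tested. With arrays scaled to the poly-A spikes, 7 members were lower and the median was -0.06, in a setting that moved the median of all genes by 0.145.

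Under TGF-β, 26 of 76 members (34.2%) were lower and 6 (7.89%) higher than in control. Over all genes 17.5% were lower and 15.0% higher, and over the bright genes 29.4% and 25.4%. The median member difference was -0.11 log2 units, 7.4% lower, against -0.01 over all genes. Both TGF-β arrays were below both control arrays for 49 members (34.4% of all genes) and above both for 18 (30.5% of all genes). No member changed by 2-fold, and 6 were lower by at least 0.5: Mrps26, Mrpl50, Mrps35, Mrpl9, Mrps24 and Mrps18a.

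Mrps26, a small subunit protein found only in mitochondria, had 9.89 and 9.81 under TGF-β and 10.43 and 10.47 in control. It was 0.60 ± 0.0641 (SE) lower under TGF-β (adjusted p = 0.000873), and the withdrawal arrays, at 9.55 and 9.67, lay lower again. That further step of -0.24 (adjusted p = 0.0266) rested on the brighter of its 2 probe sets; the other averaged 4.99, and the mean of both gave 0.02. Mrpl50, of the large subunit, averaged 9.02 under TGF-β and 9.61 in control, without overlap, a difference of -0.59 ± 0.0551 (SE; adjusted p = 0.000506). On withdrawal it differed from TGF-β by -0.13 (adjusted p = 0.109), and from control by -0.72 (adjusted p = 0.000127). The other, dimmer probe set of Mrpl50 gave -0.29 on withdrawal against TGF-β, with a call.

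Mrps24 and Mrpl9, both with bacterial counterparts, differed from control by -0.53 each under TGF-β (adjusted p = 0.000714 and 0.00123). Mrps24 had 10.58 on both withdrawal arrays and 10.59 and 10.64 on the TGF-β arrays, against 11.11 and 11.18 in control, and Mrpl9 was placed alike. Withdrawal differed from TGF-β by -0.03 for Mrps24 and 0.05 for Mrpl9, neither of which passed (adjusted p = 0.671 and 0.534). A dimmer probe set of each did pass, at -0.18 for Mrps24 and 0.27 for Mrpl9. The dimmest of Mrpl9 gave -0.17 without a call, so this step is uncertain for both.

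The 6 members higher under TGF-β than in control were Mrpl52 (0.42), Mrps33 (0.28), Mrpl20 (0.26), Mrps16 (0.24), Mrpl43 (0.22) and Mrpl36 (0.18). Without any 1 of the TGF-β or control arrays, 1 of them, Mrpl52, still passed; the adjusted p of the 6 lay between 0.00129 and 0.0433. Scaling to the poly-A spikes turned Mrpl20, Mrps16, Mrpl43 and Mrpl36 below control, and no member passed as higher under that scaling or the hybridization scaling. The share of all called genes that were higher was 46.2% as deposited and 15.1% and 23.0% under those scalings. For withdrawal against TGF-β that share was 49.6%, with 69.3% and 21.6%, and for withdrawal against control 47.9%, with 36.5% and 11.6%. Either scaling shifts all genes of an array alike. The member median less the median of all genes was -0.10 for TGF-β against control, -0.18 for withdrawal against TGF-β and -0.30 for withdrawal against control, whichever of the 3 scalings was used.

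Some members differed one way under TGF-β and the other way on withdrawal. Mrps35, of the small subunit, had 9.44 and 9.58 after withdrawal, against 9.10 and 9.03 under TGF-β and 9.57 and 9.72 in control. It was 0.58 ± 0.0783 (SE) lower under TGF-β than in control (adjusted p = 0.00237) and 0.45 higher on withdrawal than under TGF-β (adjusted p = 0.00473), and its withdrawal difference from control, -0.13, did not pass (adjusted p = 0.23). Mrps18a was placed likewise, at -0.52 under TGF-β, 0.36 on withdrawal against TGF-β (adjusted p = 0.000716 and 0.00213) and -0.16 against control (adjusted p = 0.0525). Mrpl23 was 0.26 lower under TGF-β and 0.42 higher on withdrawal against TGF-β, ending above control.

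Mrpl20, whose bacterial counterpart acts early in assembly of the large subunit, ran the other way. It had 10.16 and 10.28 after withdrawal, against 10.89 and 10.88 under TGF-β and 10.59 and 10.67 in control. TGF-β was 0.26 ± 0.0631 (SE) above control (adjusted p = 0.0256), and withdrawal was 0.67 below TGF-β (adjusted p = 0.00035) and 0.41 below control (adjusted p = 0.00262). Mrpl36 had 9.61 and 9.63, against 10.09 and 10.10 under TGF-β and 9.89 and 9.95 in control. Its rise under TGF-β, 0.18 (adjusted p = 0.0433), was lost when any 1 array was left out, while its 0.47 fall on withdrawal against TGF-β had an adjusted p of 0.000567.

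Members without a call in any comparison, on the probe set used, numbered 12: Mrpl1, Mrpl27, Mrpl33, Mrpl34, Mrpl39, Mrpl48, Mrpl54, Mrpl55, Mrpl57, Mrps21, Mrps31 and Mrps36. Dimmer probe sets of Mrpl39, Mrpl27, Mrpl34 and Mrps21 passed as lower after withdrawal than in control, at -0.20, -0.35, -0.29 and -0.50. They averaged 10.18, 7.87, 6.65 and 4.92 log2 units. Mrps36, the one that is no ribosome subunit, differed by 0.02 after withdrawal from control and -0.01 under TGF-β. Mrpl1, the dimmest member, differed by -0.02 after withdrawal, but another of its probe sets gave -0.61, so its level is uncertain. Of the 76 members 42 had several probe sets. In withdrawal against control, probe sets of Mrpl15, Mrps14 and Mrps5 passed in opposite directions, and those members are uncertain. The probe sets used gave -0.35, -0.21 and -0.44, at mean levels of 11.00, 11.46 and 8.67. Others gave 0.34, 0.24 and 0.28, at mean levels of 7.66, 4.12 and 7.59. Mrpl58, a peptidyl-tRNA hydrolase built into the large subunit, was 0.41 lower under TGF-β and 0.30 lower after withdrawal than in control (adjusted p = 0.00287 and 0.00727), but its other probe set, which averaged 4.49, gave 0.07 and 0.21.

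Both subunits held members that fell. After withdrawal against control, 30 of 49 large subunit members were lower and 4 higher, with a median of -0.30, and 19 of 26 small subunit members were lower and 1 higher, with a median of -0.42. For withdrawal against TGF-β the large subunit had 27 lower (55.1%) and 4 higher (8.16%) and the small subunit 16 (61.5%) and 2 (7.69%). The medians were -0.19 and -0.30. Of bright genes 37.2% were lower and 34.9% higher there, and of all genes 22.1% and 21.8%. For TGF-β against control these counts were 15 (30.6%) and 4 (8.16%), and 11 (42.3%) and 2 (7.69%), with medians of -0.10 and -0.16. Of bright genes 29.4% were lower and 25.4% higher there, and of all genes 17.5% and 15.0%. Proteins with a bacterial counterpart (45) had 30 lower and 3 higher after withdrawal against control, with a median of -0.41, and those found only in mitochondria (30) had 19 and 2, with -0.32. After withdrawal against control 61.2% of large and 73.1% of small subunit members were lower, and 8.16% and 3.85% were higher. Of proteins with a bacterial counterpart 66.7% were lower and 6.67% higher, and of those found only in mitochondria 63.3% and 6.67%. Among bright genes 39.1% were lower and 35.6% higher, and among all genes 23.6% and 21.7%. None of these differences between kinds of member was tested.

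Within the large subunit, the 7 proteins around the exit tunnel had 3 lower (Mrpl47, Mrpl22 and Mrpl45) and 2 higher (Mrpl24 and Mrpl23) after withdrawal against control. These shares, 42.9% and 28.6%, compare with 39.1% and 35.6% of bright genes. Mrpl45, which holds the ribosome at the inner membrane, was 0.29 lower under TGF-β and 0.41 lower after withdrawal than in control (adjusted p = 0.0058 and 0.00085). Mrpl44, a relative of RNase III, fell by 0.29 on withdrawal against TGF-β (adjusted p = 0.0097) and was at -0.16 against control (adjusted p = 0.0844). Its other, dimmer probe sets gave -0.26, -0.37 and -0.61 after withdrawal against control, all with a call. The 8 proteins of the central protuberance had 4 lower and 1 higher, Mrpl52. Mrps18a, Mrps18b and Mrps18c are related in sequence to one bacterial small subunit protein, whose place Mrps18c takes; the other two sit elsewhere and were counted as mitochondrial only. Mrps18b and Mrps18c were lower after withdrawal than in control (-0.32 and -0.34), and Mrps18a did not pass.

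**Figure D3:**
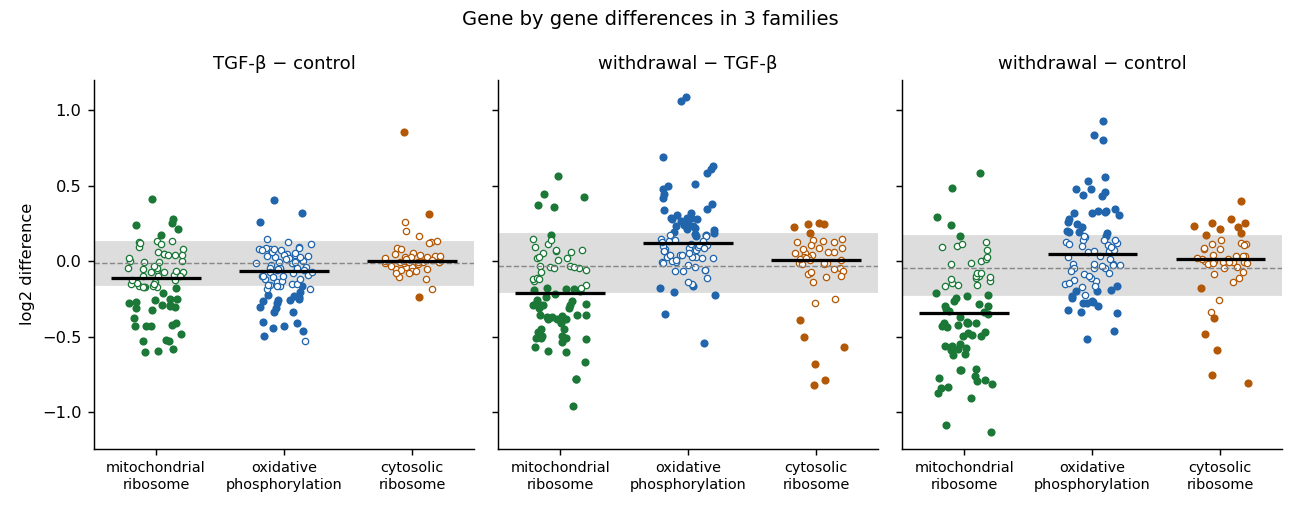
Log2 differences of mitochondrial ribosomal proteins, oxidative phosphorylation subunits and cytosolic ribosomal proteins in the 3 comparisons; filled points passed at an adjusted p below 0.05, black lines are family medians, the grey band runs between the quartiles of all genes and the dashed line is their median. Mitochondrial ribosomal proteins have medians of -0.11, -0.21 and -0.34, while the oxidative phosphorylation median is 0.12 for withdrawal against TGF-β and the cytosolic medians stay near 0.

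Values of the cytosolic ribosome and the respiratory chain are set beside these. Cytosolic ribosomal protein symbols numbered 47, among them relatives such as Rpl7l1 and Rps19bp1. After withdrawal against control 6 were lower (12.8%) and 9 higher (19.1%), with a median of 0.01. On withdrawal against TGF-β 6 were lower (12.8%) and 5 higher (10.6%), with a median of 0.01. Under TGF-β against control 1 was lower (2.13%) and 2 higher (4.26%), with a median of 0.00. Shares of all genes, in the same order, were 23.6% and 21.7%, 22.1% and 21.8%, and 17.5% and 15.0%. Those of bright genes were 39.1% and 35.6%, 37.2% and 34.9%, and 29.4% and 25.4%. The largest falls of cytosolic symbols after withdrawal against control were Rpl7l1 (-0.80) and Rps19bp1 (-0.75). On the per-array medians the cytosolic symbols stood at 13.89 and 13.91 after withdrawal, 13.83 and 13.84 under TGF-β, and 13.85 and 13.87 in control. These levels lie well above those of the members, and whether signal so bright understates differences was not tested.

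Nuclear subunits of oxidative phosphorylation (82) belong to complexes of which all but succinate dehydrogenase also hold proteins made on the mitochondrial ribosome. On withdrawal against TGF-β 34 were higher and 6 lower, with a median of 0.12, led by Cox7a1 (1.09), Ndufa6 (1.06) and Uqcrh (0.69). Against control 26 were higher and 16 lower after withdrawal, with a median of 0.05. Under TGF-β 20 were lower and 3 higher than in control, with a median of -0.07; Sdha, the flavoprotein of succinate dehydrogenase, was 0.45 lower (adjusted p = 0.00221), and it rose by 0.61 on withdrawal against TGF-β (adjusted p = 0.000377). On withdrawal against TGF-β 41.5% of these subunits were higher, beside 34.9% of bright and 21.8% of all genes. Against control that share was 31.7%, beside 35.6% and 21.7%. Under TGF-β 24.4% were lower, beside 29.4% and 17.5%. The difference between these families and the mitochondrial ribosome is a description of counts and medians and was not tested.

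Subunits of the mitochondrial ribosome that carry other symbols moved as many members did. All 4 that were measured were lower after withdrawal than in control, beside 39.1% of bright and 23.6% of all genes. The falls were 0.91 for Gadd45gip1, 0.54 for Ptcd3, 0.35 for Chchd1 and 0.24 for the small subunit GTPase Dap3. Gadd45gip1, a large subunit protein, had 8.98 and 9.13 after withdrawal, 9.58 and 9.68 under TGF-β, and 9.96 and 9.97 in control (adjusted p = 0.00014 for withdrawal against control). Chchd1 was placed like Mrpl20, 0.28 above control under TGF-β and 0.63 lower on withdrawal than under TGF-β (adjusted p = 0.0112 and 0.000247).

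Of 11 measured translation factors, 5 were lower (45.5%) and 1 higher (9.09%) after withdrawal against control. Among all genes 23.6% were lower and 21.7% higher, and among bright genes 39.1% and 35.6%. The lower ones were the elongation factors Tufm (-0.59), Tsfm (-0.32) and Gfm1 (-0.63), the release factor Mtrf1l (-0.65) and Mtfmt (-0.50), which formylates the initiator tRNA. The initiation factor Mtif2 rose by 0.65 (adjusted p = 0.000593). Under TGF-β against control 5 were lower (45.5%) and 0 higher, beside 29.4% and 25.4% of bright and 17.5% and 15.0% of all genes. On withdrawal against TGF-β 3 were lower and 3 higher (27.3% each), beside 37.2% and 34.9% of bright and 22.1% and 21.8% of all genes. Gfm2, a factor that recycles ribosomes, was at -0.32 and 0.39 in those comparisons.

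Regulators known for mitochondrial content did not all go one way. Ppargc1a, the coactivator PGC-1α that drives mitochondrial biogenesis, had 8.86 and 8.85 after withdrawal, 4.81 and 4.58 under TGF-β, and 7.46 and 7.31 in control. It was 4.16 log2 units higher on withdrawal than under TGF-β (adjusted p = 3.31e-06) and 1.47 higher than in control (adjusted p = 6.11e-05), and its TGF-β difference from control was -2.68 (adjusted p = 1.13e-05). Its TGF-β arrays lie in the range where background is not separated, so the size of these differences is uncertain. Its relative Ppargc1b and the nuclear receptor Esrra, which both act with it, were 0.98 and 0.50 above control after withdrawal.

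Pprc1, the growth-regulated member of the same coactivator family, was 0.63 lower on withdrawal than under TGF-β and 0.32 lower than in control (adjusted p = 0.000194 and 0.00354). Gabpb1, the partner subunit of the ETS factor GABPA, was 0.58 lower after withdrawal than in control, with 6.73 and 6.75 after withdrawal, 7.45 and 7.46 under TGF-β, and 7.26 and 7.38 in control. Gabpa itself, the DNA-binding subunit, had no call, and neither had Yy1 or Mycn. Max was 0.25 and Nrf1 0.35 lower after withdrawal than in control (adjusted p = 0.0133 and 0.00931). Myc was 0.40 higher under TGF-β than in control and 0.55 lower on withdrawal than under TGF-β (adjusted p = 0.0118 and 0.00214). In all, 4 of 11 regulators were lower (36.4%) and 3 higher (27.3%) after withdrawal against control. Among all genes 23.6% were lower and 21.7% higher, and among bright genes 39.1% and 35.6%.

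**Figure D4:**
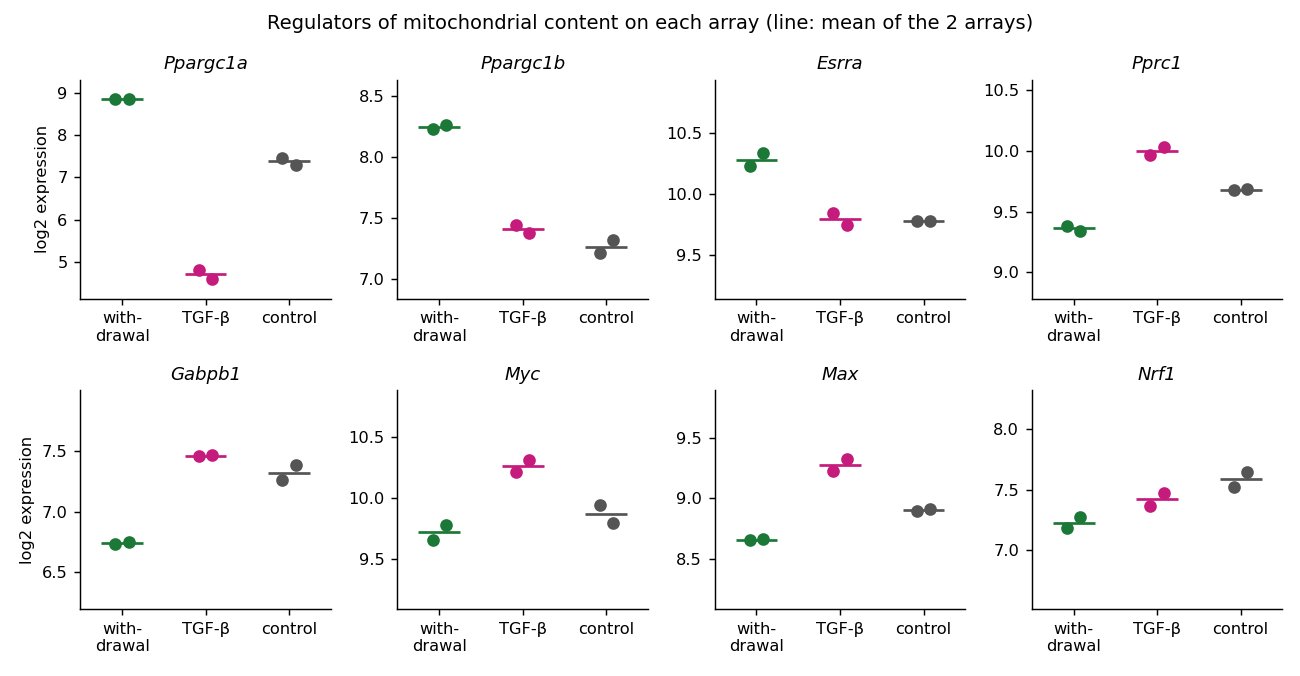
Log2 level of 8 regulators on each array in withdrawal, TGF-β and control groups, 1 point per array; the Ppargc1a panel spans a wider range than the others. Ppargc1a, Ppargc1b and Esrra are highest after withdrawal, and Pprc1, Gabpb1, Max and Nrf1 are lowest there.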

How the data were processed

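Total RNA of 6 NMuMG samples was labelled and hybridised to 1-colour Affymetrix arrays. The authors deposited a log2 value for each probe set, computed with RMA per the submitters' processing notes; its software version is not given in the sources used here. RMA sets the arrays to a common distribution, which removes a shift shared by all genes. Detection calls were not used here, so low values are not separated from background.

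Of 45101 probe sets, 64 were controls. The platform annotation gave 1 symbol to 34945, several to 932 and none to 9160; 34741 matched a RefSeq gene, and 0 symbols needed updating. Only probe sets with 1 symbol were used; 4 with several, an Mrp symbol among them, were left out. Promoters and neighbouring genes came from RefSeq, GRCm38.p6.

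For each gene, limma 3.58.1 in R 4.3.3 fitted a linear model over the 6 arrays (lmFit and eBayes, 3 residual and 2.857 prior degrees of freedom). Adjusted p-values are two-sided, with Benjamini-Hochberg adjustment over all 18193 genes and a threshold of 0.05; "called", "passed", "higher" and "lower" in counts refer to it. The median standard error of a member's difference was 0.0551 log2 units. Tables and figures used Python 3.11.15, pandas 2.3.3 and matplotlib 3.10.9. The fit was tested on simulated data.

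Members and lists were chosen with earlier results of these data known. Named members were, per comparison, the 8 largest called changes in each direction, those called in opposite directions, those called the same way and changed by at least 0.5 in both treated groups, those with opposed probe sets, and role examples; up to 5 called genes per other list were named by size. A further few, chosen after their values were seen, fill counts of lists, among them the 12 members without a call. Alternatives were a replicate block, an intensity trend in the spread, fits to the 4 arrays compared, leaving out dim genes, the mean of probe sets, leaving out probe sets named x, s or a, cyclic loess, scaling to spikes and leaving out each array.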

Additional observations from a re-analysis of the deposited data

How the results depend on the processing

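With 2 arrays a group, counts of calls by limma rest on few degrees of freedom. Across 1860 alternative values for 42 named members, 1650 were counted as the same, 139 lost the call, 57 gained it and 14 reversed. A value that changed sign with no call in either fit was counted as the same. Replicate numbers did not pair the arrays (correlations of deviations -0.0162, 0.00674 and -0.00376). With the replicate block, 24 members were lower and 5 higher under TGF-β, 39 and 5 on withdrawal against TGF-β, and 49 and 4 on withdrawal against control. An intensity trend gave 11 higher under TGF-β, 9 higher after withdrawal against control and 14 with opposite calls under TGF-β and on withdrawal (as reported, 5). Leaving out the dimmest 40% gave 10 opposite calls. Members lower under TGF-β, 26 as reported, were 39 with the trend, 36 without the dimmest 40% and 18 with the mean of probe sets. Of all genes fitted in those settings, 20.7%, 31.0% and 16.0% were lower in that comparison. The mean of probe sets gave medians of -0.0789 under TGF-β and -0.312 for withdrawal against control, and 0.0213 for Mrps26 on withdrawal against TGF-β. Without x, s and a probe sets 62 members remained, 2 higher under TGF-β and 3 higher after withdrawal against control (median -0.282), with Mrpl58 at 0.0732 and 0.21. Cyclic loess gave medians of -0.167 against TGF-β and -0.271 against control after withdrawal, with 9 higher against control. Poly-A scaling gave 0 higher under TGF-β (median -0.372), 7 lower on withdrawal against TGF-β (-0.0635), 1 higher against control (-0.46) and 3 opposite calls; Mrpl20, Mrpl36, Mrpl43 and Mrps16 under TGF-β were -0.00521, -0.0857, -0.0449 and -0.024. Hybridization scaling gave 0 higher under TGF-β (-0.27), 1 higher against TGF-β (-0.427), 0 against control (-0.721) and 0 opposite calls; Mrpl2 was -0.048 against TGF-β, and Mrpl2, Mrpl23, Mrpl43, Mrpl52, Mrps33 and Mrps36 against control were -0.281, -0.212, -0.137, -0.0819, -0.277 and -0.353. These scalings moved the median of all genes by -0.261, 0.145 and -0.116, and by -0.159, -0.218 and -0.377, for TGF-β from control, withdrawal from TGF-β and withdrawal from control. Leaving out 1 array gave 1 to 5 higher under TGF-β, medians of -0.129 to -0.105 there and -0.24 to -0.199 on withdrawal against TGF-β, 3 to 4 higher against control and 2 to 5 opposite calls. Except where a setting's own construction changes the members or the scale, the cause was not tested.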

Other observations

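Measured factors that build the mitochondrial ribosome and modify its RNA numbered 26. After withdrawal against control 13 were lower and 4 higher (15.4%), beside 39.1% and 35.6% of bright and 23.6% and 21.7% of all genes. On withdrawal against TGF-β 10 were lower (38.5%) and 3 higher (11.5%), beside 37.2% and 34.9% of bright and 22.1% and 21.8% of all genes. Under TGF-β against control 9 were lower (34.6%) and 3 higher (11.5%), beside 29.4% and 25.4% of bright and 17.5% and 15.0% of all genes. Differences between these shares were not tested. Noa1, a GTPase needed for mitochondrial translation, was 0.74 lower after withdrawal than in control (adjusted p = 8.56e-05). Mrm3, a methyltransferase of the large ribosomal RNA, was 0.64 lower and the helicase Dhx30 0.58 lower in the same comparison (adjusted p = 0.000121 and 0.000244). Grsf1, an RNA-binding protein of mitochondrial RNA granules, had 10.59 and 10.62 after withdrawal and 10.66 and 10.69 under TGF-β, against 11.23 and 11.22 in control. Lrpprc, which stabilises mitochondrial messages, was 0.69 higher after withdrawal than in control (adjusted p = 0.000176), while its partner Slirp was 0.43 lower (adjusted p = 0.000843). Trmt61b, a methyltransferase of mitochondrial RNA, was 0.76 higher under TGF-β than in control and 0.85 lower on withdrawal than under TGF-β (adjusted p = 0.000181 and 6.89e-05).

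Aminoacyl-tRNA synthetases of mitochondria, which charge tRNAs for the same ribosome, numbered 16. After withdrawal against control 5 were lower (31.2%) and 2 higher (12.5%), beside 39.1% and 35.6% of bright and 23.6% and 21.7% of all genes. On withdrawal against TGF-β 4 were lower and 3 higher (18.8%), beside 37.2% and 34.9% of bright and 22.1% and 21.8% of all genes. Under TGF-β against control 6 were lower (37.5%) and 0 higher, beside 29.4% and 25.4% of bright and 17.5% and 15.0% of all genes. Differences between these shares were not tested. Iars2 and Lars2 were each 0.51 lower under TGF-β than in control, and 0.59 and 0.50 higher on withdrawal than under TGF-β. Nars2 had 7.39 and 7.38 after withdrawal and 7.63 and 7.61 under TGF-β, against 8.13 and 8.14 in control. Tfam, which packages and transcribes mitochondrial DNA, had 9.42 and 9.38 after withdrawal and 9.38 and 9.26 under TGF-β, against 9.92 and 9.91 in control. Its differences from control were -0.52 after withdrawal and -0.60 under TGF-β (adjusted p = 0.000817 and 0.000766), while the RNA polymerase gene Polrmt differed by 0.02 and -0.02 without a call.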
